A study of Mus musculus with 18 samples.

Results

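The interleukin-1 (IL-1) family and its receptors were followed through adipose tissue of mice that lack CSN8 in adipocytes. The 10 genes, of 55487 in the count tables, were taken by name for their roles. They are the agonists *Il1a* and *Il1b*, the antagonist *Il1rn*, the receptor chains *Il1r1* and *Il1rap*, the decoy receptor *Il1r2*, the cytokine *Il18* with its decoy *Il18bp*, and the cytokine *Il33* with its receptor *Il1rl1*. All 10 were in the files. The rule that names them uses no measured value, but the members were chosen with earlier results of these data known.

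RNA sequencing covered 18 libraries from male mice on chow, killed after a short fast. Subcutaneous white adipose tissue (sWAT) was taken at 12 weeks of age from 4 Ctrl and 4 Csn8AKO mice, and brown adipose tissue (BAT) at 4 weeks of age from 5 Ctrl and 5 Csn8AKO mice. All mice carried *Csn8* alleles flanked by loxP sites (Csn8 f/f). Csn8AKO mice also carried Cre recombinase under the adiponectin promoter, which deletes part of the gene in adipocytes, whereas Ctrl mice were littermates without Cre. The libraries were made from whole tissue, so that other cells of the tissue kept the gene. In such bulk samples, fewer cells of a type and less RNA per cell cannot be told apart.

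IL-1α and IL-1β signal through IL1R1, which needs the accessory chain IL1RAP to pass the signal into the cell. IL1RN occupies IL1R1 without recruiting IL1RAP, and IL1R2 binds the agonists without a signaling domain. IL-18 is held in check by the soluble protein IL18BP, and IL-33, stored in the nucleus of stromal cells, acts on IL1RL1 together with IL1RAP. IL-1β and IL-18 are made as precursors that caspase-1 cuts, so that their mRNA levels are not levels of active cytokine. In adipose tissue, IL-1β is known for impairing insulin action in adipocytes, and IL-33 for maintaining type 2 lymphoid cells and regulatory T cells.

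The 2 members that rose in Csn8AKO sWAT, *Il1rn* and *Il33*, each have more than one annotated transcription start, and a count per gene does not show which start was used. In *Il1rn* the upstream start is known for intracellular forms and the downstream one for the secreted form. The sequences before 2 starts of each gene are shown, since the counts do not tell these starts apart, and a further *Il1rn* entry that overlaps exons is not printed. They are RefSeq promoter entries of build GRCm38.p6 on the plus strand, cover 200 bases each and end 11 bases before the start.
Il1rn, upstream start, chr2:24336650-24336849: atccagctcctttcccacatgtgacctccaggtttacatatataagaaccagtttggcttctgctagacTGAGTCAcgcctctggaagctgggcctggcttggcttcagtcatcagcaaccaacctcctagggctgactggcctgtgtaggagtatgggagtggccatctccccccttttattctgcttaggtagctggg
Il1rn, downstream start, chr2:24345081-24345280: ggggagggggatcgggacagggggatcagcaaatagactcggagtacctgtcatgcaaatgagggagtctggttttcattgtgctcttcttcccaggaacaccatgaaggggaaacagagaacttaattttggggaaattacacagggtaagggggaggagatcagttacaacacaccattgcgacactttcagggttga
Il33, upstream start, chr19:29924903-29925102: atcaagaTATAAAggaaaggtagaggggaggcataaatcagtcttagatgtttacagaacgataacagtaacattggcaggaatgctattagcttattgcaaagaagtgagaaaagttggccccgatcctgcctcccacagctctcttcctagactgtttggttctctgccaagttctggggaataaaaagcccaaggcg
Il33, downstream start, chr19:29945580-29945779: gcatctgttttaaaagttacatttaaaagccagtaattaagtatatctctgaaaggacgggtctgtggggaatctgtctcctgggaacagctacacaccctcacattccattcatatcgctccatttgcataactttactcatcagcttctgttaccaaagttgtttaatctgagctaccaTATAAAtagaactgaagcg
Capitals mark matches to 4 motifs searched on both strands: GGGANTTTC for NF-κB, TGANTCA for AP-1, TTGCNNAAT for C/EBP and TATAAA for the TATA box, where N is any base. The upstream *Il1rn* stretch held 1 AP-1 match, whose first base lay 141 bases before the start, and the downstream stretch held 0 matches. The TATA match of the downstream *Il33* start began 29 bases before it, while that of the upstream start began 203 bases before it. Of 32851 promoter entries cut to the same length, 5.52% held the AP-1 letters, 10.2% those of the TATA box, 1.68% those of C/EBP and 0.731% those of NF-κB, so a match is a description of the letters alone. Both downstream stretches overlapped 0 exons of their own gene and lay within introns of its longer transcripts.

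The study also lists quantitative PCR primers for *Il1b* and *Il18*. Its text describes both in cultured macrophages given medium from Csn8AKO adipocytes of epididymal fat, where IL-1β expression rose and IL-18 trended higher. In white and brown adipocytes that lack CSN8, the paper reports no consistent rise of either. The primers show which part of each transcript that assay read.
Il1b, forward: ctgcttccaaacctttgacc
Il1b, reverse: cttctccacagccacaatga
Il18, forward: actttggccgacttcactgt
Il18, reverse: ttcacagagagggtcacagc
Both *Il1b* primers matched exon 4 of 7 in the annotated *Il1b* transcript (chr2:129368137-129368156 and chr2:129368039-129368058, minus strand) and enclose 118 bases. For *Il18* the forward primer matched exon 3 and the reverse primer exon 4 of 5 in an annotated *Il18* transcript (chr9:50577779-50577798 and chr9:50579349-50579368, plus strand), enclosing 196 bases. The PCR values are not analysed here.

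Between 15835721 and 23109603 reads were counted per sWAT library and between 26658593 and 66719937 per BAT library. Levels are given as CPM, counts scaled to library size with TMM factors over all 18 libraries, and values are listed in the order of the replicate numbers. Brown adipocyte markers summed to 10.6 to 146 CPM in sWAT and to 4321 to 9237 CPM in BAT, while adipocyte markers were high in both. *Csn8* is listed under its symbol *Cops8*, which ran from 31.9 to 35.7 CPM in Ctrl and 27.0 to 34.9 CPM in Csn8AKO sWAT, and from 38.1 to 46.0 and 28.4 to 37.4 CPM in BAT; the count covers exons that the deletion leaves in place and cells without Cre. A few libraries stood apart. Reads of ribosomal RNA genes made up 31.8% and 47.8% of Csn8AKO replicates 3 and 4 of sWAT, against 1.80% to 19.8% in the other 6 sWAT libraries and 0.863% to 15.1% in BAT. In sWAT, Ctrl replicate 1 and Csn8AKO replicate 2 held B cell markers at 160.0 and 407 CPM, against 5.63 to 16.3 CPM in the other 6, and their T cell markers were 238 and 309 CPM. Ctrl replicate 4 of sWAT held 15 hair follicle genes, a list written after the values were seen, at 340 CPM in sum against 0.586 to 1.81 CPM in the other 7. In BAT, Csn8AKO replicates 1 and 5 held skeletal muscle markers at 109 and 195 CPM, against 0.419 to 1.73 CPM in the other 8, while these markers ran from 38.0 to 2497 CPM over the sWAT libraries.

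**Figure D1:**
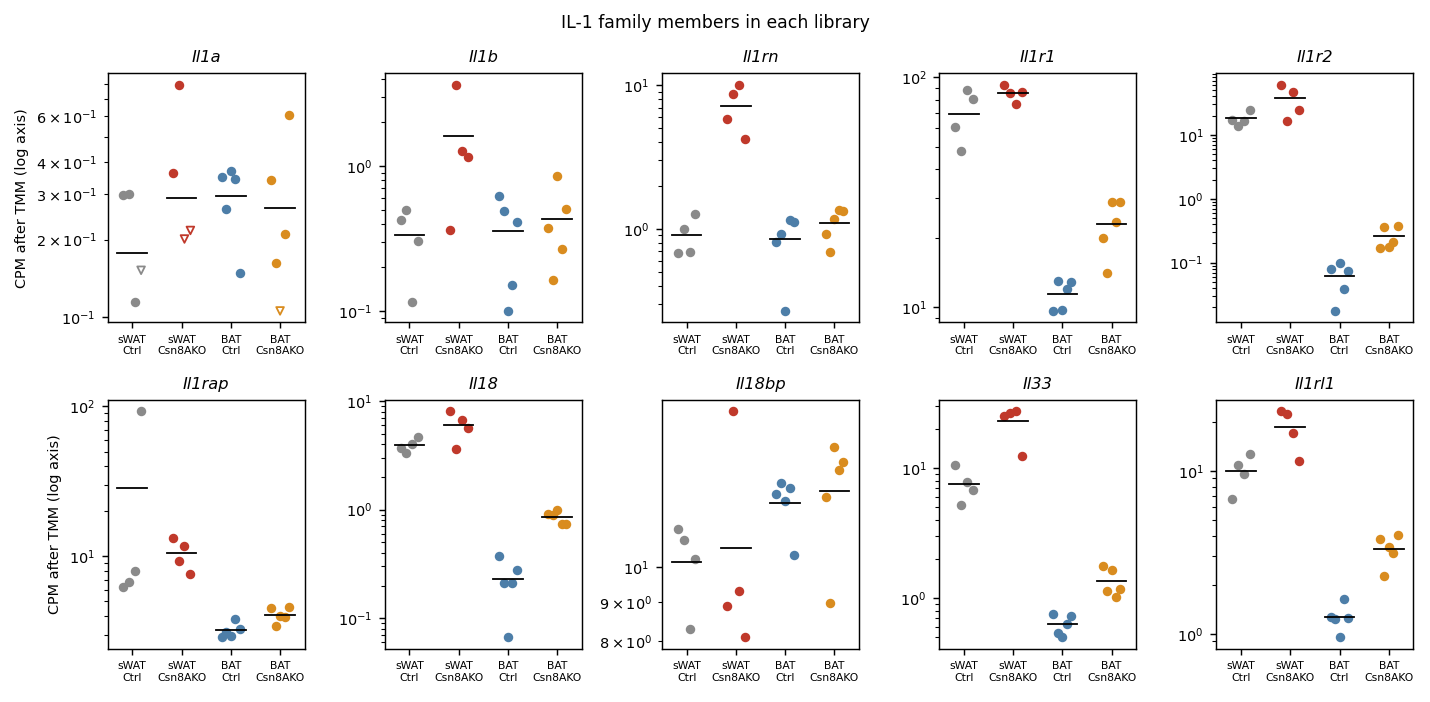
Level of each IL-1 family member in CPM after TMM scaling (log axis) in the 18 libraries, by group. Points are libraries, lines are group means, and open triangles mark libraries with a count of 0, drawn at the CPM that 3 counts would give. On this scale *Il1rn* and *Il33* lie higher in every Csn8AKO than in every Ctrl library of sWAT, *Il1r1*, *Il1r2*, *Il18*, *Il33* and *Il1rl1* do so in BAT, and 1 sWAT Ctrl library stands out for *Il1rap* at 93.4 CPM.

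Of the 10 members, *Il1rn* and *Il33* rose in Csn8AKO sWAT and 0 fell. *Il1rn* was 7.96-fold and *Il33* 3.03-fold higher, and in CPM after TMM scaling every Csn8AKO library was above every Ctrl library for both. On other scales it was not always so, and the lowest Csn8AKO library was then replicate 4, the one with the most ribosomal RNA. In the deposited TPM that library had 0.690 TPM of *Il1rn* against at most 0.780 in Ctrl, and 3.90 TPM of *Il33*, below the Ctrl range of 3.97 to 12.7. By library size alone *Il33* overlapped as well, whereas with ribosomal RNA genes left out of the library size both genes separated the genotypes. For *Il33* that gap was very narrow, with 14.12 CPM in the highest Ctrl and 14.17 CPM in the lowest Csn8AKO library. *Il1a* and *Il1b* were too low for the test in this tissue, and the 8 other members passed the filter on low counts in all 8 libraries. Over the 18843 genes tested by edgeR's quasi-likelihood test, 2.30% were higher and 3.00% lower at an adjusted p under 0.05, and for 5.64% the groups did not overlap with Csn8AKO above Ctrl, against 2 of 8 members on each count. With library size alone, 106 genes were higher and 328 lower, in place of 434 and 566. The median log2 fold change of the 8 members was 0.76, against 0.03 for all genes.

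The antagonist *Il1rn* (ENSMUSG00000026981, chromosome 2, 24336853 to 24351494, plus strand) stood at 0.680, 1.00, 0.688 and 1.27 CPM in Ctrl sWAT. In Csn8AKO sWAT it stood at 5.82, 8.63, 10.1 and 4.20 CPM. The lowest Csn8AKO library was thus above the highest Ctrl library (log2 fold change 2.99, with a standard error, SE, of 0.35, adjusted p = 0.00242). The call held in all 21 alternative fits, with log2 fold changes of 2.76 to 3.19 and adjusted p of 4.16e-13 to 0.0237.

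For the agonists, few reads were counted. *Il1b* (ENSMUSG00000027398, chromosome 2, 129364570 to 129371139, minus strand) had 10, 10, 2 and 6 reads in Ctrl and 8, 87, 19 and 16 reads in Csn8AKO sWAT, that is 0.425, 0.501, 0.115 and 0.304 CPM against 0.363, 3.64, 1.27 and 1.16 CPM. The groups overlapped, since Csn8AKO replicate 1 lay among the Ctrl libraries, and the highest value was that of Csn8AKO replicate 2, the library with high lymphoid markers. Without the filter, edgeR gave a log2 fold change of 2.23 (adjusted p = 0.0813). With all 4 groups in one fit the adjusted p was 0.0399, and it was 0.202 when Csn8AKO replicate 2 was also left out (log2 fold change 1.42). *Il1bos*, on the other strand, overlaps *Il1b*, and the use of strand in counting is not stated. *Il1a* (ENSMUSG00000027399, chromosome 2, 129299610 to 129309972, minus strand) had 7, 6, 2 and 0 reads in Ctrl and 8, 19, 0 and 0 reads in Csn8AKO sWAT. A count of 0 allows up to 0.152 CPM in Ctrl replicate 4 and up to 0.201 and 0.217 CPM in Csn8AKO replicates 3 and 4, by 3 counts per library and for counting error only. In 3 fits that kept *Il1a* it was not called (edgeR, adjusted p = 0.671 to 0.901). *Gm14023* overlaps *Il1a* on the other strand.

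The receptor chains and the decoy did not pass the test in sWAT. *Il1r1* (ENSMUSG00000026072, chromosome 1, 40225080 to 40317257, plus strand), the signaling receptor, was at 61.0, 48.0, 87.6 and 80.7 CPM in Ctrl and 93.0, 85.2, 76.2 and 86.2 CPM in Csn8AKO mice (log2 fold change 0.31, SE 0.19, adjusted p = 0.407). The decoy *Il1r2* (ENSMUSG00000026073, chromosome 1, 40074079 to 40125231, plus strand) was at 17.3, 13.9, 16.7 and 24.4 CPM in Ctrl and 61.3, 16.4, 46.8 and 24.6 CPM in Csn8AKO mice. Replicates 1 and 3 were high and replicate 2 lay within the Ctrl range (log2 fold change 1.04, SE 0.38, adjusted p = 0.159). It was called in 4 of 21 alternatives: by DESeq2 and in the fit of all 4 groups (adjusted p = 0.0430 and 0.0453), without Csn8AKO replicate 2 (edgeR, adjusted p = 0.0410), and in the fit of all 4 groups without that library (edgeR, adjusted p = 0.00382). *Gm16894* on the other strand and *Gm37347* overlap *Il1r2*, and *Gm38070* overlaps *Il1r1* on the same strand.

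*Il1rap* (ENSMUSG00000022514, chromosome 16, 26581704 to 26730117, plus strand), the accessory chain shared by the IL-1 and IL-33 receptors, was at 6.29, 6.76, 7.96 and 93.4 CPM in Ctrl and 13.2, 9.26, 11.8 and 7.67 CPM in Csn8AKO sWAT. A single Ctrl library, replicate 4, set the direction (log2 fold change -1.43, SE 0.99, adjusted p = 0.496). Without that library the log2 fold change was 0.58 (edgeR, adjusted p = 0.25). In that library 0 of the 15 hair follicle genes were at 0 reads, against 10 to 14 of the 15 in the other sWAT libraries, and 5 epithelium markers summed to 10.2 CPM against 0.601 to 2.51 CPM. The part of these genes in the *Il1rap* level was not tested. *Gm20319* overlaps *Il1rap* on the other strand.

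**Figure D2:**
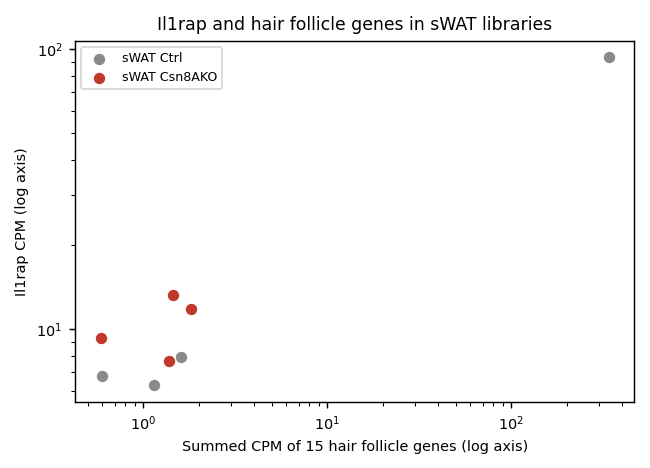
*Il1rap* level (CPM, log axis) against the summed CPM of 15 hair follicle genes (log axis) in the 8 sWAT libraries, 1 point per library. Ctrl replicate 4, at 93.4 CPM of *Il1rap* and 340 CPM of hair follicle genes, lies far from the other 7 libraries.

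In the IL-18 pair, *Il18* (ENSMUSG00000039217, chromosome 9, 50554827 to 50581840, plus strand) was at 3.70, 3.35, 4.07 and 4.67 CPM in Ctrl and 8.13, 3.64, 6.64 and 5.64 CPM in Csn8AKO sWAT (log2 fold change 0.61, SE 0.25, adjusted p = 0.209). Replicate 2 alone of the Csn8AKO libraries lay within the Ctrl range. *Bco2* and *Tex12* overlap *Il18* on the other strand. *Il18bp* (ENSMUSG00000070427, chromosome 7, 102014885 to 102018690, minus strand), which *Numa1* overlaps on the other strand, was at 11.2, 10.9, 8.31 and 10.2 CPM in Ctrl and 8.91, 16.0, 9.32 and 8.10 CPM in Csn8AKO mice. Its groups overlapped widely (log2 fold change 0.08, SE 0.25, adjusted p = 0.900), and without Csn8AKO replicate 2 the log2 fold change was -0.22 (edgeR, adjusted p = 0.523).

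In the IL-33 pair, the ligand *Il33* (ENSMUSG00000024810, chromosome 19, 29925114 to 29960718, plus strand) was at 10.5, 5.21, 7.79 and 6.85 CPM in Ctrl and 25.1, 26.6, 27.6 and 12.4 CPM in Csn8AKO sWAT. Even the low replicate 4 was above every Ctrl library (log2 fold change 1.60, SE 0.30, adjusted p = 0.0160). The call held in 16 of 21 alternatives. It was lost with library size alone (adjusted p = 0.0523) and when any of 4 libraries was left out, with adjusted p of 0.0506 without Csn8AKO replicate 1, 0.0576 without Csn8AKO replicate 3, 0.0570 without Ctrl replicate 3 and 0.0606 without Ctrl replicate 4 (edgeR), while the log2 fold change stayed between 1.43 and 1.82. Its receptor *Il1rl1* (ENSMUSG00000026069, chromosome 1, 40429570 to 40465415, plus strand), also called ST2, was at 6.76, 10.8, 9.57 and 12.7 CPM in Ctrl and 23.4, 22.4, 17.1 and 11.5 CPM in Csn8AKO mice. Only Csn8AKO replicate 4 reached down into the Ctrl range (log2 fold change 0.92, SE 0.26, adjusted p = 0.0695), and 6 of 21 alternatives put the gene past the threshold, with adjusted p from 0.0139 to 0.332 over all 21. The soluble and the membrane form of IL1RL1 come from different transcripts, which the gene count does not separate.

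Markers of cells that are known to make these proteins are given beside these results. Of all genes tested in sWAT, 2.30% were called higher and 3.00% lower. In sWAT, 8 of 12 macrophage markers were called higher, and their sum ran from 857 to 1293 CPM in Ctrl and 1271 to 2391 CPM in Csn8AKO libraries. Neutrophil markers summed to 5.86 to 8.37 CPM and 12.5 to 26.4 CPM (1 of 3 tested called higher, of 9 listed), with *Ly6g* at 0 reads in all 8 libraries. Mast cell markers summed to 41.2 to 73.6 CPM and 62.4 to 214 CPM (0 of 7 called), and fibroblast and progenitor markers to 9029 to 10540 CPM and 9385 to 16810 CPM (0 of 8 called). Adipocyte markers summed to 8945 to 14120 CPM in Ctrl and 3900 to 9032 CPM in Csn8AKO libraries (2 of 8 called lower, exact permutation test, p = 0.0571), and brown adipocyte markers ran from 68.0 to 146 CPM and 10.6 to 27.1 CPM (2 of 6 tested called lower). By two-sided exact permutation tests the p of the 4 sums of macrophage, neutrophil, mast cell and fibroblast markers was 0.0571, 0.0286, 0.0571 and 0.114, each 0.171 or more after adjustment over 15 library measures. The smallest p that 4 against 4 libraries can give is 0.0286. Endothelium markers summed to 454.5 to 545.3 CPM in Ctrl and 323.5 to 545.7 CPM in Csn8AKO sWAT (0 of 6 called). Mesothelium markers summed to 2.68 to 4.18 CPM and 1.86 to 2.97 CPM (0 of 2 tested called, of 6 listed). The part of these cells in the levels of *Il1rn* and *Il33* was not tested. A fit added after the data were seen left out Ctrl replicate 1 and Csn8AKO replicate 2, the pair with high B cell markers. *Il1rn* and *Il33* were still called in it (log2 fold change 2.76 and 1.72, edgeR, adjusted p = 0.00258 and 0.00923). They were also called without Csn8AKO replicates 3 and 4, the pair with the most ribosomal RNA, a fit added after the data were seen (log2 fold change 2.99 and 1.76, edgeR, adjusted p = 0.0172 and 0.0330).

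**Figure D3:**
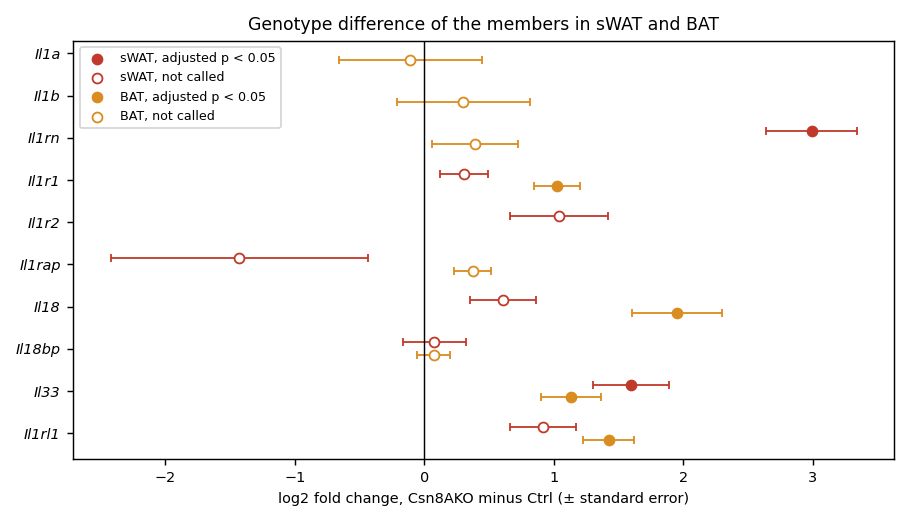
Log2 fold change of each member, Csn8AKO minus Ctrl, from edgeR in sWAT (red) and BAT (orange), with bars of 1 standard error. Filled points passed an adjusted p of 0.05, and members below the filter on low counts have no point. *Il1rn* at 2.99 is past the threshold in sWAT and, at 0.39, not in BAT, whereas *Il1r1*, *Il18* and *Il1rl1* are past it in BAT.

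In Csn8AKO BAT, 4 members rose and 0 fell. They were the receptor *Il1r1*, the cytokines *Il18* and *Il33*, and the IL-33 receptor *Il1rl1*, at 2.03-fold to 3.87-fold of Ctrl. The agonists and *Il1rn* were low in both genotypes and did not pass the test. This tissue had many calls among all genes: of 22345 tested, 16.0% were higher and 15.8% lower, and 9.50% had groups that did not overlap with Csn8AKO above Ctrl, against 4 of 9 tested members on each count. With library size alone, 4183 were higher and 2087 lower in place of 3585 and 3536, and the median log2 fold change of all genes moved to 0.14. On the scale of the deposited TPM the libraries of *Il1r1* and *Il1rl1* overlapped between the genotypes, and by library size alone those of *Il1r1* did, the lowest Csn8AKO library then being replicate 2, while *Il18* and *Il33* kept apart on all 4 scales computed. The median log2 fold change of the 9 members was 0.39, against 0.01 for all genes.

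*Il18* was scarce in Ctrl BAT, at 0.378, 0.210, 0.0668, 0.210 and 0.279 CPM, which rest on 4 to 15 reads per library. It stood at 0.917, 0.895, 0.989, 0.743 and 0.744 CPM in Csn8AKO BAT, and all 5 libraries were above every Ctrl library (log2 fold change 1.95, SE 0.35, adjusted p = 0.000749). Its decoy *Il18bp* was at 12.5, 12.9, 12.2, 12.7 and 10.4 CPM in Ctrl and 12.4, 8.99, 14.3, 13.4 and 13.7 CPM in Csn8AKO mice, with groups that overlapped (log2 fold change 0.07, SE 0.13, adjusted p = 0.699).

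*Il1rl1* was at 1.27, 1.23, 0.952, 1.64 and 1.25 CPM in Ctrl and 3.82, 2.28, 3.43, 3.14 and 4.02 CPM in Csn8AKO BAT (log2 fold change 1.43, SE 0.20, adjusted p = 0.000107). Of the members it had the smallest adjusted p in this tissue. Its ligand *Il33* was at 0.755, 0.544, 0.501, 0.629 and 0.726 CPM in Ctrl and 1.78, 1.14, 1.66, 1.02 and 1.18 CPM in Csn8AKO mice (log2 fold change 1.14, SE 0.23, adjusted p = 0.00190). Neither gene had a Csn8AKO library within the Ctrl range.

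*Il1r1* was at 9.66, 13.1, 9.72, 12.0 and 12.9 CPM in Ctrl and 20.1, 14.1, 28.6, 23.4 and 28.7 CPM in Csn8AKO BAT (log2 fold change 1.02, SE 0.18, adjusted p = 0.000710). Csn8AKO replicate 2, the lowest, was still above the highest Ctrl library. *Il1rap* was at 2.89, 3.10, 2.96, 3.79 and 3.29 CPM in Ctrl and 4.52, 3.42, 3.99, 3.91 and 4.60 CPM in Csn8AKO mice, where replicate 2 fell within the Ctrl range (log2 fold change 0.37, SE 0.14, adjusted p = 0.0623). It passed the threshold in 5 of 20 alternatives, DESeq2 among them (adjusted p = 0.0218). *Il1r2* had 3, 1, 6, 2 and 4 reads in Ctrl and 10, 9, 5, 15 and 11 reads in Csn8AKO BAT, below the filter. Its CPM did not overlap between the groups (at most 0.100 in Ctrl and at least 0.170 in Csn8AKO mice), and without the filter the log2 fold change was 1.99 (edgeR, adjusted p = 0.0223).

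The agonists and the antagonist gave no difference past the threshold in BAT. *Il1b* had 23, 28, 6, 8 and 22 reads in Ctrl and 22, 4, 24, 19 and 15 reads in Csn8AKO libraries (log2 fold change 0.30, SE 0.51, adjusted p = 0.696). *Il1a* had 13, 15, 22, 18 and 8 reads in Ctrl and 20, 4, 0, 15 and 18 reads in Csn8AKO libraries (log2 fold change -0.11, SE 0.55, adjusted p = 0.906). *Il1rn* was at 0.809, 0.912, 0.267, 1.14 and 1.12 CPM in Ctrl and 0.917, 0.691, 1.17, 1.35 and 1.32 CPM in Csn8AKO BAT (log2 fold change 0.39, SE 0.33, adjusted p = 0.405). For all 3 the genotypes overlapped, and for *Il1a* and *Il1b* the standard error was larger than the fold change.

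The 4 calls in BAT held in every alternative in which the gene was tested (20 for *Il1r1*, *Il33* and *Il1rl1* and 19 for *Il18*), including the fit without Csn8AKO replicates 1 and 5, the libraries with muscle genes, which was added after the data were seen. Markers of other cells are given beside these calls, in a tissue where 16.0% of all genes were called higher and 15.8% lower. In BAT, 11 of 12 macrophage markers were called higher and summed to 122 to 163 CPM in Ctrl and 334 to 406 CPM in Csn8AKO libraries. Mast cell markers summed to 1.88 to 4.40 CPM and 16.2 to 31.7 CPM (4 of 4 tested called, of 7 listed), and *Fcer1a* was at 0 reads in 3 Ctrl libraries and 1 Csn8AKO library. All 8 fibroblast and progenitor markers were called higher and summed to 1088 to 1864 CPM and 2831 to 4749 CPM, and T cell markers summed to 2.84 to 4.43 CPM and 6.18 to 10.8 CPM (3 of 7 called higher). Neutrophil markers summed to 1.47 to 2.50 CPM and 2.93 to 4.66 CPM (1 of 2 tested called higher, of 9 listed). Each of these 5 sums had a p of 0.00794 by the two-sided exact permutation test, the smallest that 5 against 5 libraries can give, and of 0.0198 after adjustment over 15 library measures. B cell markers summed to 5.26 to 8.42 CPM in Ctrl and 3.86 to 5.65 CPM in Csn8AKO libraries (exact permutation test, p = 0.0318, and 0.0595 after adjustment), with 1 of 6 called lower. Adipocyte markers summed to 8082 to 9442 CPM and 8523 to 10470 CPM (exact permutation test, p = 0.516). Endothelium markers summed to 752.1 to 984.8 CPM in Ctrl and 796.1 to 1097 CPM in Csn8AKO libraries (2 of 6 called higher). Mesothelium markers summed to 8.36 to 12.8 CPM and 9.22 to 15.0 CPM (0 of 1 tested called, of 6 listed). The part of these cells in the member levels was not tested.

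Whether the genotype effect differed between the tissues was tested by the genotype-by-tissue interaction term of a fit to the 18 libraries, which reuse the samples of both comparisons. Tissue and age cannot be told apart here, since sWAT came from older mice than BAT. *Il1rn* alone passed the threshold, with an effect in BAT that was lower than that in sWAT by 2.62 on the log2 scale (interaction -2.62, SE 0.51, adjusted p = 0.00791), and it did so in all 26 alternatives. Among 22509 genes, 1.61% had a higher and 0.755% a lower effect in BAT. With library size alone these were 494 and 39 genes in place of 362 and 170, with the median of all genes at 0.21. *Il18* had an interaction of 1.32 (standard error 0.43, adjusted p = 0.121) that DESeq2 and limma voom put past the threshold (adjusted p = 0.0290 and 0.0456). For *Il1r1* the interaction was 0.71 (adjusted p = 0.195), for *Il1rl1* 0.50 (adjusted p = 0.50), for *Il33* -0.48 (adjusted p = 0.570) and for *Il1b* -1.96 (adjusted p = 0.301). Thus, apart from *Il1rn*, no member was shown by this test to respond differently in the 2 tissues.

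Between the Ctrl groups, 6 members were lower in BAT than in sWAT and 0 were higher. BAT came from mice of 4 weeks and sWAT from mice of 12 weeks, and the BAT libraries were deeper. Tissue, age and depth thus cannot be told apart in this comparison. Among 22509 genes tested, 25.9% were higher and 25.7% lower in BAT, against 6 of 10 members lower. With library size alone 2893 were higher and 5694 lower in place of 5823 and 5774, with the median of all genes at -0.21. *Il1r2* differed most, with 13.9 to 24.4 CPM in sWAT and 0.0175 to 0.100 CPM in BAT (log2 fold change -8.12, SE 0.45, adjusted p = 8.20e-11). *Il18* followed with -4.13 (adjusted p = 2.76e-09), *Il33* with -3.59 (adjusted p = 1.09e-09), *Il1rl1* with -2.97 (adjusted p = 3.20e-09) and *Il1r1* with -2.60 (adjusted p = 1.63e-09). *Il1rap* was at -3.15 (adjusted p = 0.000759), but without Ctrl replicate 4 of sWAT, the library with hair follicle genes, at -1.12. The groups of all 6 did not overlap, as was the case with BAT lower for 22.1% of all genes. Markers of several other cell types were also called lower in BAT. They were 12 of 12 macrophage markers (median log2 fold change -3.15), 7 of 7 mast cell markers (-3.95) and 7 of 7 T cell markers (-4.49). So were 8 of 8 fibroblast and progenitor markers (-2.70), 4 of 6 B cell and 3 of 4 tested neutrophil markers. Endothelium markers went the other way, with 4 of 6 called higher and 1 lower in BAT (median log2 fold change 0.79). Of 2 mesothelium markers tested, 1 was higher and 1 lower. The part of all these cells in the member levels was not tested. In contrast, *Il1a*, *Il1b*, *Il1rn* and *Il18bp* differed by 0.68, 0.03, -0.10 and 0.25 on the log2 scale (adjusted p = 0.553, 0.974, 0.845 and 0.255), each with overlapping libraries.

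**Figure D4:**
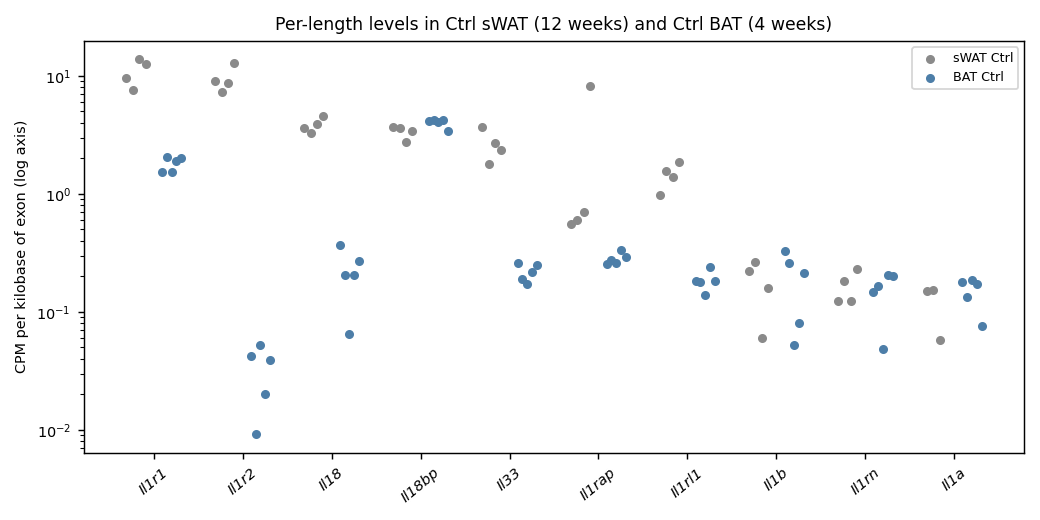
Level per kilobase of exon (CPM per kb, log axis) of each member in the 4 Ctrl sWAT (grey) and 5 Ctrl BAT (blue) libraries, 1 point per library, in the order of the sWAT means. The sWAT library with 0 reads of *Il1a* is not drawn. *Il1r2* is near the top in sWAT (mean 9.48) and lowest in BAT (mean 0.0326), and *Il18bp* lies close to 4 in both.

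Levels of different genes were compared per kilobase of exon. In Ctrl sWAT the order of the mean CPM per kb was *Il1r1* (10.9 ± 2.85, SD, n = 4), *Il1r2* (9.48 ± 2.34), *Il18* (3.83 ± 0.544), *Il18bp* (3.36 ± 0.429), *Il33* (2.63 ± 0.774), *Il1rap* (2.52 ± 3.80), *Il1rl1* (1.45 ± 0.363), *Il1b* (0.176 ± 0.0883), *Il1rn* (0.164 ± 0.0510) and *Il1a* (0.0902 ± 0.0745). Without Ctrl replicate 4 the *Il1rap* mean was 0.616 ± 0.0760 (SD, n = 3), below that of *Il1rl1*. The ranges of neighbors were apart at 2 places in this order, between *Il1r2* and *Il18* and between *Il1rl1* and *Il1b*. The receptor and its decoy were thus the most abundant members and the ligands and antagonist of IL-1 the least. In Csn8AKO sWAT, *Il1rn* was seventh at 1.30 ± 0.484 CPM per kb (SD, n = 4), with a range that overlapped those of its neighbors *Il1rl1* and *Il1rap*.

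In Ctrl BAT, *Il18bp* came first (4.01 ± 0.333 CPM per kb, SD, n = 5) and *Il1r1* second (1.80 ± 0.263), each apart from its lower neighbor. *Numa1* overlaps *Il18bp* on the other strand, and the use of strand in counting is not stated. The 7 members from *Il1rap* (0.282 ± 0.0319) to *Il1a* (0.149 ± 0.0460) overlapped with their neighbors, and *Il1r2* was last (0.0326 ± 0.0176), apart from *Il1a*. In Csn8AKO BAT, *Il1r1* reached 3.61 ± 0.966 CPM per kb and overlapped *Il18bp* (4.15 ± 0.701), *Il18* came next at 0.832 ± 0.106, and *Il1rl1*, *Il33* and *Il1rap* followed at 0.484, 0.470 and 0.360 CPM per kb with ranges that overlapped.

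The balance of each pair was described by the ratio of the deposited TPM, a per-length level, within each library and without a test. *Il18bp* over *Il18* was 11.2, 20.9, 62.4, 20.6 and 12.7 in Ctrl BAT and 4.59, 3.42, 4.94, 6.13 and 6.29 in Csn8AKO BAT, so every Csn8AKO library was below every Ctrl library. In sWAT that ratio was 1.03, 1.10, 0.696 and 0.748 in Ctrl and 0.373, 1.50, 0.478 and 0.489 in Csn8AKO mice, where 3 libraries were below the Ctrl range and replicate 2 above it. The few *Il18* reads of Ctrl BAT make its single ratios imprecise, and the ratio of 62.4 rests on 4 reads of *Il18*. Genes on the other strand overlap both *Il18bp* and *Il18*, and the use of strand in counting is not stated.

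*Il1rn* over *Il1b* was 0.551, 0.689, 2.07 and 1.44 in Ctrl sWAT and 5.51, 0.816, 2.74 and 1.25 in Csn8AKO sWAT. These ranges overlapped, but they rest on few *Il1b* reads, 2 to 10 in Ctrl and 8 to 87 in Csn8AKO libraries. The Ctrl ratio of 2.07 rests on 2 reads of *Il1b*. In BAT *Il1rn* over *Il1b* ran from 0.449 to 2.58 in Ctrl and from 0.474 to 1.74 in Csn8AKO mice. These values rest on 6 to 28 and 4 to 24 reads of *Il1b*, so single ratios are imprecise in both tissues. *Il1r2* over *Il1r1* was 0.948, 0.967, 0.635 and 1.01 in Ctrl sWAT and 2.20, 0.643, 2.05 and 0.951 in Csn8AKO sWAT, and at most 0.0344 and 0.0865 in Ctrl and Csn8AKO BAT. The BAT values rest on 1 to 6 reads of *Il1r2* in Ctrl and 5 to 15 in Csn8AKO libraries. *Il1rl1* over *Il33* ran from 0.268 to 0.870 in Ctrl and 0.259 to 0.391 in Csn8AKO sWAT, and from 0.703 to 1.09 and 0.837 to 1.42 in BAT.

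**Figure D5:**
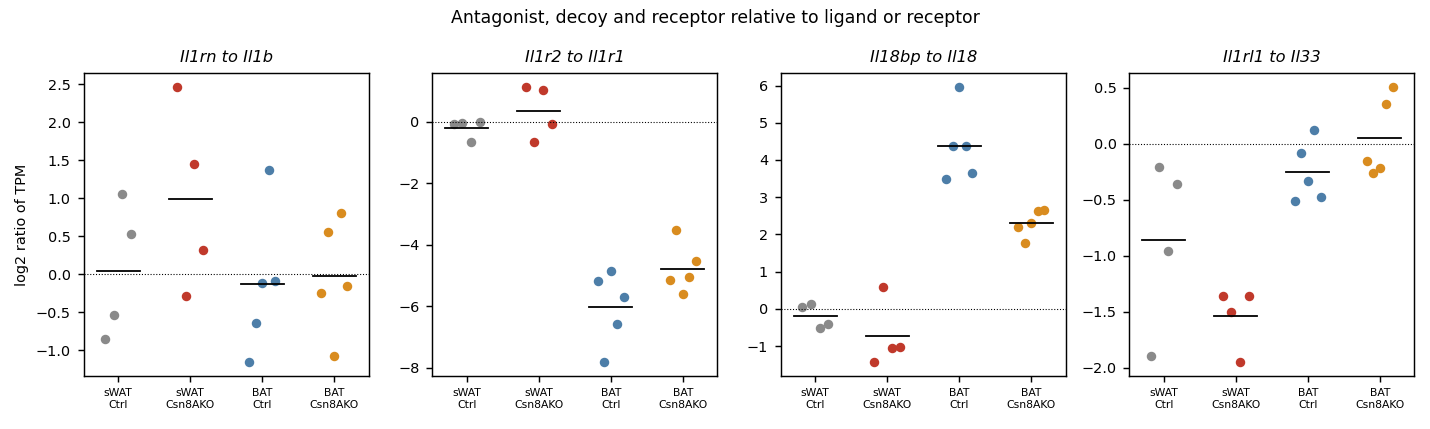
Log2 ratio of TPM in each library for 4 pairs of an antagonist, decoy or receptor to its ligand or receptor. Points are libraries, lines are means, and the dotted line marks equal levels. *Il18bp* to *Il18* separates the genotypes in BAT, at 11.2 to 62.4 in Ctrl and 3.42 to 6.29 in Csn8AKO libraries before the log, whereas *Il1rn* to *Il1b* overlaps in both tissues. Both ratios rest on few reads, of *Il18* in Ctrl BAT and of *Il1b* in both tissues.

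Other genes of the pathway were taken from 5 lists. In Csn8AKO BAT 16.0% of all genes were called higher, and the median log2 fold change of all genes was 0.01. Of the genes that process IL-1β and IL-18, 9 of 10 were higher there, with a median of 1.24. They included *Casp1*, the caspase that cuts both precursors, from 0.495 ± 0.142 to 1.54 ± 0.476 CPM (SD, n = 5, a log2 difference of 1.66, adjusted p = 0.000326). The sensor gene *Nlrp1b* rose from 0.645 ± 0.264 to 2.36 ± 0.466 CPM (a log2 difference of 1.91, adjusted p = 0.000310), and *P2rx7*, an ATP-gated channel that triggers inflammasomes, from 3.84 ± 0.342 to 7.36 ± 1.12 CPM (a log2 difference of 0.96, adjusted p = 0.000127). The sensor *Nlrp3*, named after its values were seen as the 1 gene of the 10 that was not called, was at 0.523 ± 0.245 and 0.497 ± 0.220 CPM. The BAT count of 9 became 7 with no filter on low counts and without Csn8AKO replicates 1 and 5 together. It was also 7 without Ctrl replicate 1 or 2. In sWAT 3 of the 10 processing genes were higher, against 2.30% of all genes. They were *Nlrc4* (log2 fold change 1.18, adjusted p = 0.0295), *Nlrp1a* (1.37, adjusted p = 0.0325) and *Gsdmd* (0.65, adjusted p = 0.0460), the last encoding the pore through which mature IL-1β leaves cells. The count of called genes in sWAT was 0 with library size alone, with the replicate number in the model, without the pair of libraries with the most ribosomal RNA, and without Csn8AKO replicate 1 or 3 or Ctrl replicate 2 or 3, and it was 1 without Ctrl replicate 1 or 4 and with no filter on low counts.

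Among the other receptors and ligands of the family, 4 of 11 found in the files were tested in each tissue. In BAT 3 of them rose, against 16.0% of all genes: *Il18rap* (log2 fold change 1.45, adjusted p = 7.45e-05) and *Il18r1* (1.18, adjusted p = 0.0399), the chains of the IL-18 receptor, and *Il1rl2* (1.47, adjusted p = 0.000111), the receptor for IL-36. The call of *Il18r1* held in 11 of 19 alternatives. It was lost with all 4 groups in one fit, without Csn8AKO replicates 1 and 5 together, and without Ctrl replicate 2, 4 or 5 or Csn8AKO replicate 1, 4 or 5 (adjusted p up to 0.208), whereas *Il18rap* and *Il1rl2* were called in all 20. In sWAT, where 2.30% of all genes were higher and 3.00% lower, 0 of 4 were called (0 by DESeq2 as well). Their median was 0.65 on the log2 scale.

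In the signaling chain below the receptors, of 18 genes 1 was higher and 4 were lower in BAT, where 16.0% and 15.8% of all genes were. In sWAT 0 were higher and 1 lower, against 2.30% and 3.00% of all genes. The 4 lower in BAT became 2 without Ctrl replicate 3 or 5 or Csn8AKO replicate 5, without Csn8AKO replicates 1 and 5 together, and with library size alone (with 2 higher). *Peli2*, which encodes a ubiquitin ligase of the IRAK complex, fell in both tissues, from 80.3 ± 14.0 to 45.2 ± 9.55 CPM in sWAT (SD, n = 4, a log2 difference of -0.82, adjusted p = 0.0291) and from 78.4 ± 11.2 to 42.1 ± 4.67 CPM in BAT (SD, n = 5, a log2 difference of -0.88, adjusted p = 3.26e-05). The sWAT call held in 13 of 21 alternatives and was lost with library size alone, with the replicate number in the model, without the pair of libraries with the most ribosomal RNA, and without Csn8AKO replicate 1 or 3 or Ctrl replicate 2, 3 or 4 (adjusted p up to 0.135). *Irak1*, a kinase recruited by the receptors, fell in BAT from 110.1 ± 6.92 to 64.5 ± 4.08 CPM (a log2 difference of -0.75, adjusted p = 5.25e-06), while *Irak2* rose (0.70, adjusted p = 0.0162). Both genes of the list with a called interaction encode such kinases. The effect on *Irak4* was lower in BAT than in sWAT (interaction -0.71, adjusted p = 0.00865), a call made in 25 of 26 alternatives and lost with library size alone (adjusted p = 0.707). The effect on *Irak1* was lower too (interaction -0.59, adjusted p = 0.0101), a call made in 24 of 26 alternatives and lost with library size alone (adjusted p = 0.775) and with no filter on low counts.

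Of genes known to respond to IL-1, 2 of 14 rose in sWAT, against 2.30% of all genes. *Lcn2*, encoding the siderophore-binding lipocalin 2, went from 0.813 ± 0.521 to 462 ± 200.4 CPM (SD, n = 4, a log2 difference of 9.10, adjusted p = 0.000138), and the acute-phase gene *Saa3* from 0.730 ± 0.374 to 13.2 ± 4.82 CPM (a log2 difference of 4.19, adjusted p = 0.000977). *Saa3* was below the filter on low counts in BAT and was not tested there. In BAT 6 of 13 rose and 2 fell, against 16.0% and 15.8% of all genes. The 2 that fell became 1 with library size alone, in the fit of all 4 groups, with the filter of CPM over 1, and without Ctrl replicate 1, 3, 4 or 5 or Csn8AKO replicate 1, 2 or 4, as *Nfkbiz* was called in 10 of 20 alternatives. They were led by *Vcam1*, an adhesion molecule (log2 fold change 1.69, adjusted p = 5.51e-07), *Lcn2* (5.78, adjusted p = 2.81e-06) and, among those that fell, *Zc3h12a*, which encodes an RNase that degrades cytokine mRNAs (-0.56, adjusted p = 0.000990). The rise of *Lcn2* was smaller in BAT than in sWAT (interaction -3.35, edgeR, adjusted p = 0.00865). That call was made in 25 of 26 alternatives and lost by limma voom (adjusted p = 0.0643). The genes of this list also respond to other cytokines. Of genes of the type 2 response that IL-33 is known for, 1 of 8 rose in sWAT, against 2.30% of all genes. In BAT 3 of 7 rose, against 16.0% of all genes. The gene in sWAT was *Chil3* (log2 fold change 2.90, adjusted p = 0.0139), which was below the filter on low counts in BAT and not tested there. Those in BAT were *Retnla* (1.57, adjusted p = 0.000101), *Arg1* (0.86, adjusted p = 0.00759) and *Gata3* (0.79, adjusted p = 0.0248). The *Chil3* call was lost with the replicate number in the model, without Ctrl replicate 2 and without the pair of libraries with the most ribosomal RNA. That of *Gata3* was lost in 6 of 20 alternatives: all 4 groups in one fit, without Csn8AKO replicates 1 and 5 together, and without Ctrl replicate 2 or 3 or Csn8AKO replicate 4 or 5.

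The genes whose log2 CPM was most like that of each member were sought over the 18 libraries after the mean of each tissue was subtracted, so that genotype differences shared by many genes, depth and cell content enter the likeness. *Il1rn* was nearest to *Glrx* (r = 0.879) and *Srgap2* (r = 0.872), and *Il33* to *Serpinb1a* (r = 0.937) and *Fam111a* (r = 0.928). *Il1rl1* was nearest to *Ccl6* (r = 0.939) and *Tlr13* (r = 0.938), and *Il18* to *Tlr7* (r = 0.938) and *Clec12a* (r = 0.931). For *Il1r1* these were *Kcnk6* (r = 0.931) and *Sema6d* (r = 0.924), for *Il18bp* they were *Itgae* (r = 0.852) and *Ddx55* (r = 0.828), and for *Il1rap* they were *Prkar1b* (r = 0.900) and *Yeats2* (r = 0.832), a pattern that includes the library with hair follicle genes.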

How the data were processed

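RNA was depleted of ribosomal RNA, primed with random hexamers and sequenced as paired reads on a NovaSeq X Plus. The authors aligned reads with STAR to the mouse genome (GRCm38, Ensembl annotation) and deposited, per library, a raw read count per gene from featureCounts, from uniquely aligned, unambiguous reads, and a TPM value. Whether counting used strand is not given in the sources used here, so reads of genes that overlap on opposite strands cannot be told apart.

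Counts were tested with edgeR 4.0.16 in R 4.3.3, with TMM factors, filterByExpr (minimum count 10, minimum total 15) and robust quasi-likelihood fits within each tissue, and over all 18 libraries for the interaction and for Ctrl BAT against Ctrl sWAT. P-values were adjusted by Benjamini-Hochberg over all genes tested, and a gene was called at an adjusted p under 0.05. Depth and marker sums were tested by exact permutation, two-sided (scipy 1.17.1). Alternatives used DESeq2 1.42.0, limma 3.58.1, other scalings and filters, and each replicate left out. Scripts were tested on simulated data. Each library is taken as a separate mouse by its replicate number. Depth ran from 15835721 to 66719937 counted reads.

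The 10 members and all gene lists were chosen with earlier results of these data known. The text names every member, for each pathway list and tissue up to 3 called genes of smallest adjusted p, and for each member tested in both tissues the 2 protein-coding genes, of average log2 CPM at least 1, with the highest Pearson r. Promoters are RefSeq entries (GRCm38.p6), and primer positions come from GENCODE M21.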

Additional observations from a re-analysis of the deposited data

Results flagged for a closer look

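In 40 groups of 4 or 5 libraries, 4 held a library far from the others by Dixon's test, which chance gives in about 1 of 20 groups. *Il1rap* was at 93.4 CPM in Ctrl replicate 4 of sWAT, the highest of 4, in the library with hair follicle genes. *Il18bp* was at 16.0 CPM in Csn8AKO replicate 2 of sWAT, the highest of 4, in a library with high B and T cell markers. *Il18bp* was at 10.4 CPM in Ctrl replicate 5 of BAT, the lowest of 5. *Il33* was at 12.4 CPM in Csn8AKO replicate 4 of sWAT, the lowest of 4. The effect of genotype on *Il1rn* differed between the tissues by a test of the difference itself (interaction -2.62 on the log2 scale, edgeR, adjusted p = 0.00791).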

How the results depend on the processing

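In sWAT 2 members were called, against 1 with library size alone, 4 by DESeq2, 5 with all 4 groups in one fit, 4 in that fit without Csn8AKO replicate 2 (added after the data were seen), and 1 to 3 with each replicate left out. It was 1 without Ctrl replicate 3 or 4 or Csn8AKO replicate 1 or 3. The interaction gave 1 member, and 2 by DESeq2 and by limma voom. In BAT and between the Ctrl groups the counts stayed within 1.5 times. The replicate number as a block gave 2 called members in sWAT (*Il1rn* 2.95, adjusted p = 0.0237, and *Il33* 1.58, adjusted p = 0.0453), 4 in BAT, 1 interaction and 6 between the Ctrl groups. Same-numbered libraries correlated at -0.373 to 0.215 in sWAT and -0.094 to 0.097 in BAT. In sWAT no Ctrl library correlated best with the Csn8AKO library of its own number, and in BAT only numbers 1 and 5 did. The sign changed for members that were not called, and the cause was not tested. In sWAT *Il18bp* was -0.065 by limma voom, -0.039 with the B and T cell covariate and -0.22 to 0.18 with replicates left out. Added after the data were seen, the fit without the library of highest B cell markers in each genotype gave -0.15. The fit with all groups and without Csn8AKO replicate 2, added likewise, gave -0.20. *Il1a* in sWAT was -0.33 with all groups and without Csn8AKO replicate 2, and *Il1rap* ran from -1.77 to 0.58 with replicates left out. In BAT *Il1a* was 0.058 with library size alone and -0.55 to 0.18 with replicates left out, and *Il1b* -0.047 to 0.57. For the interaction, *Il18bp* was 0.01 with RLE factors, 0.13 with library size alone, 0.0 with no filter, 0.007 by DESeq2, 0.18 by limma voom, 0.016 with the replicate block and -0.12 to 0.27 with replicates left out, where *Il1a* ran from -1.41 to 0.20 and *Il1rap* from -0.23 to 2.14. Between the Ctrl groups *Il1b* was -0.21 with library size alone, -0.12 by limma voom, -0.069 with the replicate block, -0.022 with Ctrl libraries alone and -0.24 to 0.28 with replicates left out, and *Il1rn* -0.25 to 0.13.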
